A study of Mus musculus with 6 samples.

Results

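The genes described here encode subunits of the transcription factor NF-kappaB and proteins that restrain it or change its action: Nfkb1, Nfkb2, Rel, Rela, Relb, Nfkbia, Nfkbie, Nfkbid, Bcl3 and Tnfaip3. They were taken by gene symbol, current or older, from the annotation of the array's transcript clusters (probe groups that each report 1 transcription unit). Of these 10 genes, 9 were measured, each by 1 cluster that carries no other gene's name, out of 30024 genes with such a cluster. Nfkb1 was not analysed here. All 9 lay at or above the array median on all 6 arrays and entered the test, which covered 16825 genes.

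RNA came from CD4+CD25+ cells, a phenotype that enriches for regulatory T (Treg) cells, taken by magnetic separation from spleens of untreated male C57BL/6 mice. Keap1_KO denotes 3 arrays (replicates B, C and D) from mice of genotype Keap1 -/-, made by crossing VAVcre mice with mice that carry floxed Keap1 alleles, and WT denotes 3 arrays (replicates A, D and F) from Keap1 +/+ mice. The Vav promoter is active throughout blood-forming cells, so the cross is not specific to Treg cells, and the labels do not say whether the WT mice carried VAVcre. The sample characteristics give an age of 10 to 12 months and the growth protocol one of 6 to 10 weeks. Nothing in the labels says that each array is a different mouse, so p-values describe the spread between these arrays, which may be partly technical.

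NF-kappaB works as dimers of Rel-family proteins that IkappaB proteins hold inactive in the cytoplasm. Signals from the T cell receptor, CD28 and receptors of the tumour necrosis factor (TNF) family activate IkappaB kinase (IKK), IkappaB is degraded, and the freed dimers enter the nucleus and bind kappaB sites in DNA. Several of the genes they switch on encode their own inhibitors, which closes a feedback loop, and in Treg cells c-Rel and p65 are needed for the cells to develop and to keep their identity. KEAP1, the protein removed in these mice, is best known for directing the degradation of NRF2, a transcription factor of the oxidative stress response.

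Promoter sequences of the 3 genes that separated the genotypes, of the classical feedback inhibitor Nfkbia and of Rel are shown because kappaB sites in such genes are the known basis of this loop. RefSeq promoter windows (GRCm38.p6, 250 bases before to 50 after an annotated start site) were matched by symbol for 8 of the 9 measured genes, all but Relb, with 13 windows. Both strands were searched for the kappaB consensus and for the antioxidant response element (ARE) core TGACNNNGC, the core of the element that NRF2 dimers bind. In the sequences below, written 5′ to 3′ along the gene, capitals mark kappaB matches.
Nfkb2 (chr19:46304487-46304786, plus strand): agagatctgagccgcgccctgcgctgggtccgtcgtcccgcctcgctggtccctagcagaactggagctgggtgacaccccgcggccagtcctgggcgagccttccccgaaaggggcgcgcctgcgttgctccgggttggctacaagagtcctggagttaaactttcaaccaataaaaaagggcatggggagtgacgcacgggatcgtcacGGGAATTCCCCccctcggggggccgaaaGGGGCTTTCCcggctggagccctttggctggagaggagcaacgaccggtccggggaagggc
Nfkbie (chr17:45555450-45555749, plus strand): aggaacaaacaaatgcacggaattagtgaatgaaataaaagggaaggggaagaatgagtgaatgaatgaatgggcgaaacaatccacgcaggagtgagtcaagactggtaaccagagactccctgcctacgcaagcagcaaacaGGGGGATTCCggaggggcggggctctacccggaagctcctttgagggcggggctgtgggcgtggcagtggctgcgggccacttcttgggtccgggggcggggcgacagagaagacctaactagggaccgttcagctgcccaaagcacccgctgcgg
Bcl3 (chr7:19822706-19823005, minus strand): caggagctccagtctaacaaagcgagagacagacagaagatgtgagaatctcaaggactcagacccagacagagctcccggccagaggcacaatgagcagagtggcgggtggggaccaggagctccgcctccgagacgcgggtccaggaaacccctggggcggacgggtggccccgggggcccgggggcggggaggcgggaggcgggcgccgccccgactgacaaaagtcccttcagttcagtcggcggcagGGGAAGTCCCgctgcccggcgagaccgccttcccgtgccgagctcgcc
Nfkbia (chr12:55492598-55492897, minus strand): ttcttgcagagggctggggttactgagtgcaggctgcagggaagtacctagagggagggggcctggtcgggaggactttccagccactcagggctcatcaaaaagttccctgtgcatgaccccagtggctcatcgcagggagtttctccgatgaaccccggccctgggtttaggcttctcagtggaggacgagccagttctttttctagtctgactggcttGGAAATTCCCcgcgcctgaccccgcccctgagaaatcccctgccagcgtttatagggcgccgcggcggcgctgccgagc
Rel (chr11:23770920-23771219, minus strand): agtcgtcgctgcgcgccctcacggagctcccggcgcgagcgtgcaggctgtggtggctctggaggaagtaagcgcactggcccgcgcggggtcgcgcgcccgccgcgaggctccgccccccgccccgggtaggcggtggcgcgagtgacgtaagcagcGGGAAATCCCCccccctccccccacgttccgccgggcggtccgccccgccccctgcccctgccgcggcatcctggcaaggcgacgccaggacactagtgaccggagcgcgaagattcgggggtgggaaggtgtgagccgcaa
A kappaB match was present in at least 1 window of 7 of the 8 genes and in 9 of the 13 windows, against 5.14% of the 27025 genes and 4.51% of the 32851 windows in the whole table. These counts are a description, since some genes have several windows and 2 of the Nfkb2 windows overlap and share 1 match. Rela was the gene without a match. Counting the start site as 0, the first Nfkb2 window held overlapping matches from -39 to -29 and another from -11 to -2, and Bcl3 held GGGAAGTCCC from 2 to 11, just inside the transcript. The other matches shown are GGGGGATTCC from -106 to -97 in Nfkbie, GGAAATTCCC from -29 to -20 in Nfkbia, and overlapping letters from -92 to -82 in Rel. Tnfaip3 and Nfkbid held 2 matches each, in 1 of their windows. The ARE core was present in 1 of the 8 genes, Nfkbia, as TGACCCCGC from -13 to -5, against 14.0% of all genes. A match shows letters, not occupancy.

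**Figure D1:**
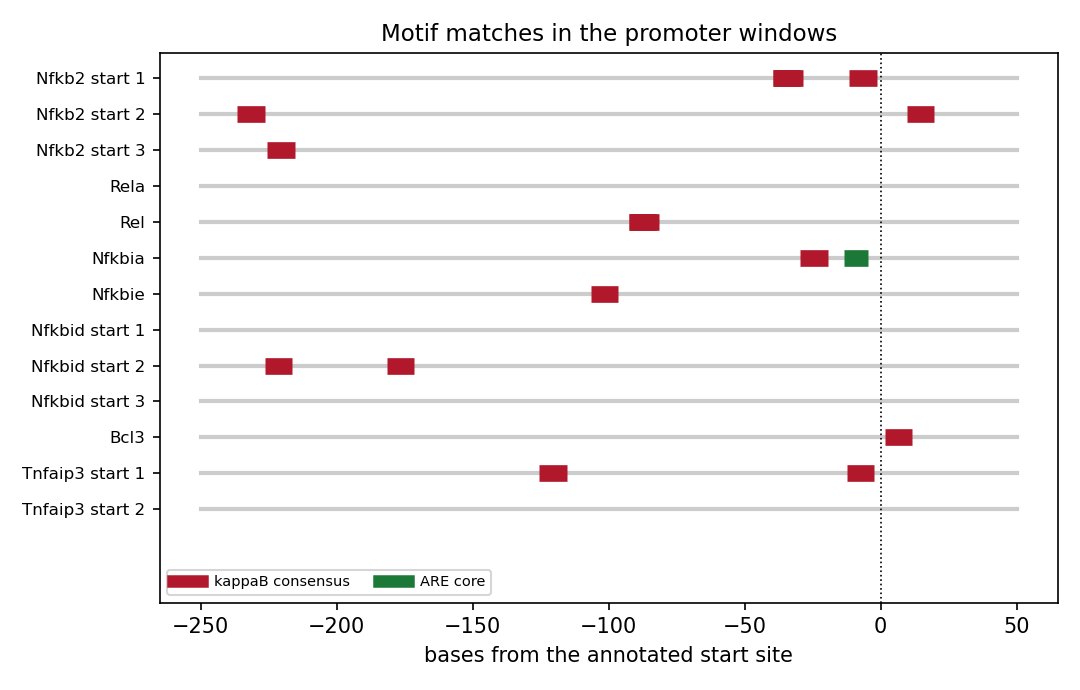
Positions of kappaB consensus matches (red) and ARE core matches (green) in the 13 promoter windows of 8 genes, in bases from each annotated start site. Red bars appear in 9 windows of 7 genes, and the only green bar is in Nfkbia, beside its kappaB match.

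The arrays were checked before the genes were compared. Keap1 itself read 4.87, 4.89 and 4.70 on Keap1_KO B, C and D, against 5.30, 5.41 and 5.77 on WT A, D and F. Keap1 was dim, at or above the array median on only 2 of 6 arrays, and was not among the genes tested. Where its probes lie relative to the floxed part is not known here. Il2ra, which encodes CD25, was high on every array (13.60 to 14.19), as were Cd3e, Cd4, Ctla4 and Ikzf2, while Foxp3 was not analysed here. The series title writes CD4-, whereas every sample's label writes CD4+ and Cd4 read 12.09, 13.05 and 13.29 for Keap1_KO B, C and D, against 11.87, 12.30 and 11.16 for WT A, D and F. The array closest to Keap1_KO B across all genes tested was WT A (Pearson r = 0.988, across genes), and not another Keap1_KO array. Markers of other blood cells were strongest on Keap1_KO D, and their values stand beside the results below.

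Values are log2 expression, differences are Keap1_KO minus WT, and a difference of 1 is a doubling. Levels of different genes are not compared, because each cluster's probes respond differently. No gene in the transcriptome passed limma's adjusted p of 0.05 (0% of 16825, smallest adjusted p = 0.258), although 1733 had an unadjusted p under 0.05, so none of the 9 genes passed either. A higher mean in Keap1_KO was found for 7 of the 9 genes, where 56.5% of all genes tested had one. In 3 of them, Nfkb2, Nfkbie and Bcl3, every Keap1_KO array lay above every WT array, a separation seen in 9.11% of all genes. No member showed the opposite separation, seen in 4.96% of all genes, and with each array centred on its median these shares were 12.4% and 2.28%. The median difference over the 9 genes was 0.76, against 0.06 over all genes, and it was 0.45 without WT F. Without Keap1_KO B, 6 of the 9 were separated (Rela, Relb and Nfkbia in addition), but so were 31.6% of all genes in that direction, and without WT D the count was also 6 (Relb, Nfkbia and Nfkbid in addition), with 23.9% of all genes. With array weights, which gave WT A the most weight, Nfkb2, Nfkbia, Nfkbie and Bcl3 had adjusted p (limma) between 0.0408 and 0.0447, and 1880 of all genes passed as well. In bulk RNA, fewer cells of a type and less RNA per cell cannot be told apart.

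**Figure D2:**
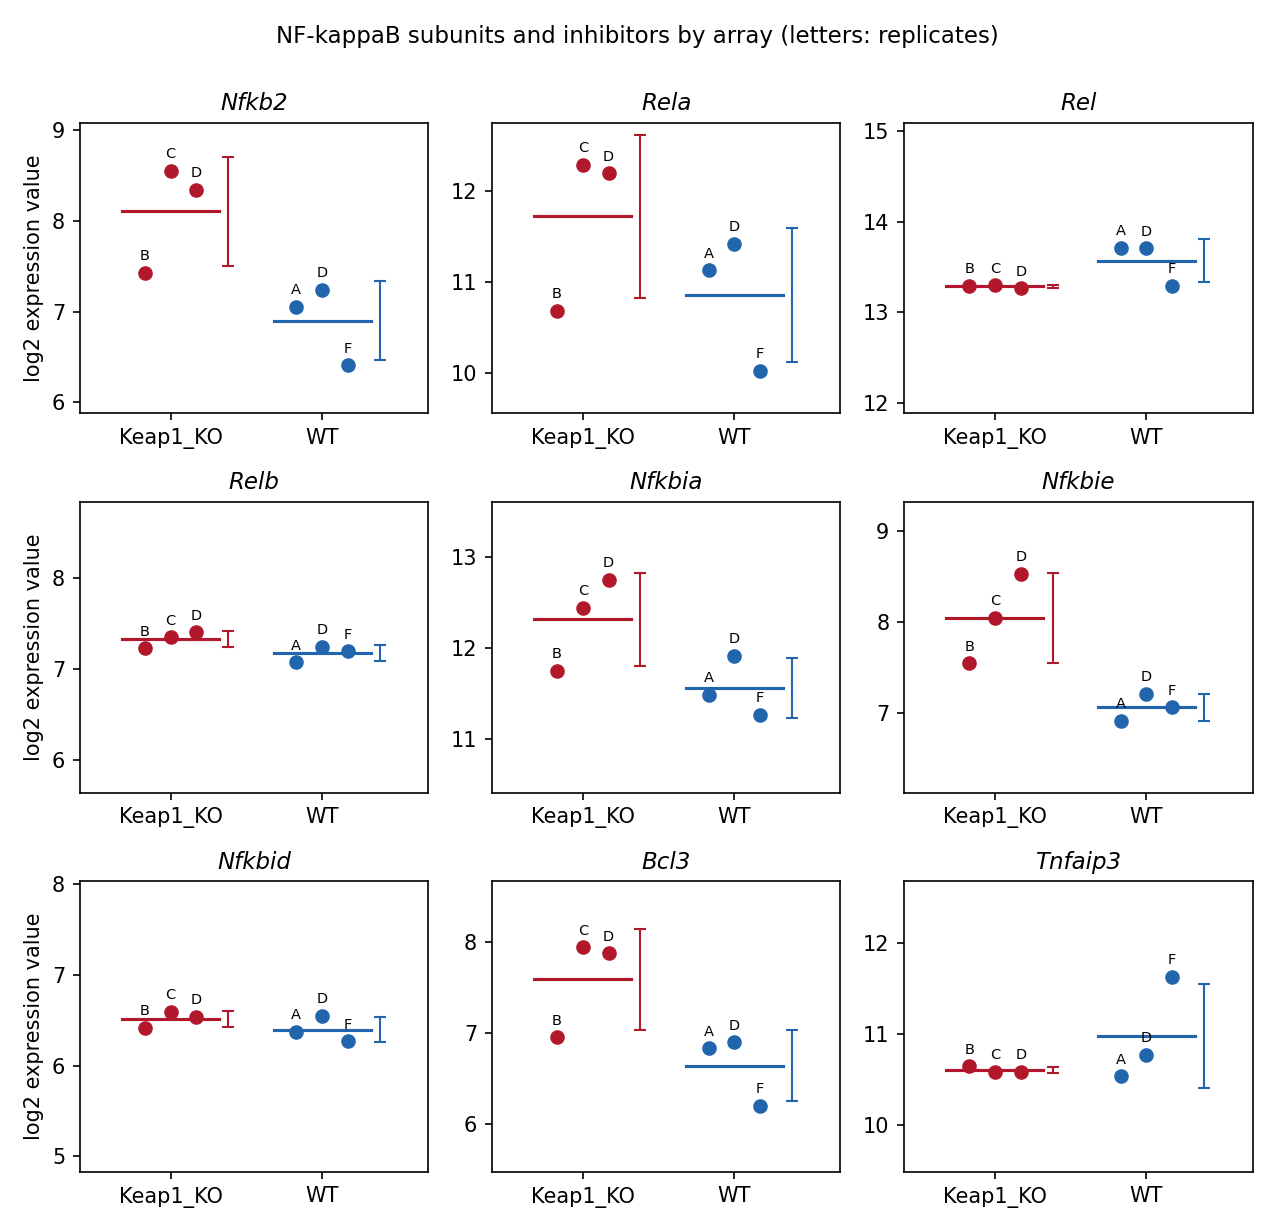
Log2 expression of the 9 measured genes on each array, Keap1_KO in red and WT in blue, with replicate letters. Horizontal lines are means, bars at the side are ± 1 SD (n = 3), and every panel spans the same range of log2 units. Nfkb2, Nfkbie and Bcl3 are the panels in which the groups do not overlap, and Tnfaip3 shows 1 high array, WT F.

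Among the subunits, Nfkb2 had the largest difference. It encodes p100, which acts as an inhibitor until it is processed to the DNA-binding subunit p52 in the alternative NF-kappaB pathway. Nfkb2 read 7.42, 8.55 and 8.34 on Keap1_KO B, C and D, against 7.05, 7.24 and 6.41 on WT A, D and F. The lowest Keap1_KO array, B, was 0.19 above the highest WT array, D, while C and D stood more than 1 unit above it. The means were 8.10 ± 0.60 in Keap1_KO and 6.90 ± 0.43 in WT (SD, n = 3 each), a 2.30-fold difference (log2 difference 1.20, SE 0.37, 95% interval 0.32 to 2.08). A two-sided exact permutation test gave p = 0.1, which 3 arrays against 3 cannot go below, and limma's adjusted p was 0.476.

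Rela encodes p65, the main transactivating subunit of the canonical pathway. Its values were 10.68, 12.28 and 12.19 on Keap1_KO B, C and D, against 11.13, 11.42 and 10.02 on WT A, D and F. Keap1_KO C and D were the highest arrays, but Keap1_KO B was below WT A and WT D, so the groups overlapped. The difference of 0.87 (SE 0.55, 95% interval -0.46 to 2.19, exact permutation p = 0.3, limma adjusted p = 0.519) was within the spread, which for Rela was the widest of the 9 genes in both groups (SD 0.90 in Keap1_KO and 0.74 in WT). It was 1.38 without Keap1_KO B and 0.45 without WT F.

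Rel, the gene of c-Rel, had the tightest Keap1_KO values. They were 13.29, 13.30 and 13.26 on B, C and D, against 13.71, 13.71 and 13.29 on WT A, D and F. WT A and D stood above all Keap1_KO arrays, while WT F lay among them. The difference was -0.29 (SE 0.18, 95% interval -0.72 to 0.15, exact permutation p = 0.2, limma adjusted p = 0.518). Rel was one of 2 genes with a lower mean in Keap1_KO. Without WT F all Keap1_KO arrays were below the WT arrays, as they were without Keap1_KO C, and 11.2% and 6.95% of all genes behaved so in those settings.

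Relb, whose product pairs with p52, read 7.23, 7.35 and 7.41 on Keap1_KO B, C and D, against 7.07, 7.25 and 7.19 on WT A, D and F. The groups overlapped only through Keap1_KO B and WT D, which differed by 0.02. The difference of 0.16 (95% interval -0.21 to 0.52) was small, with an exact permutation p of 0.2 and a limma adjusted p of 0.643.

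**Figure D3:**
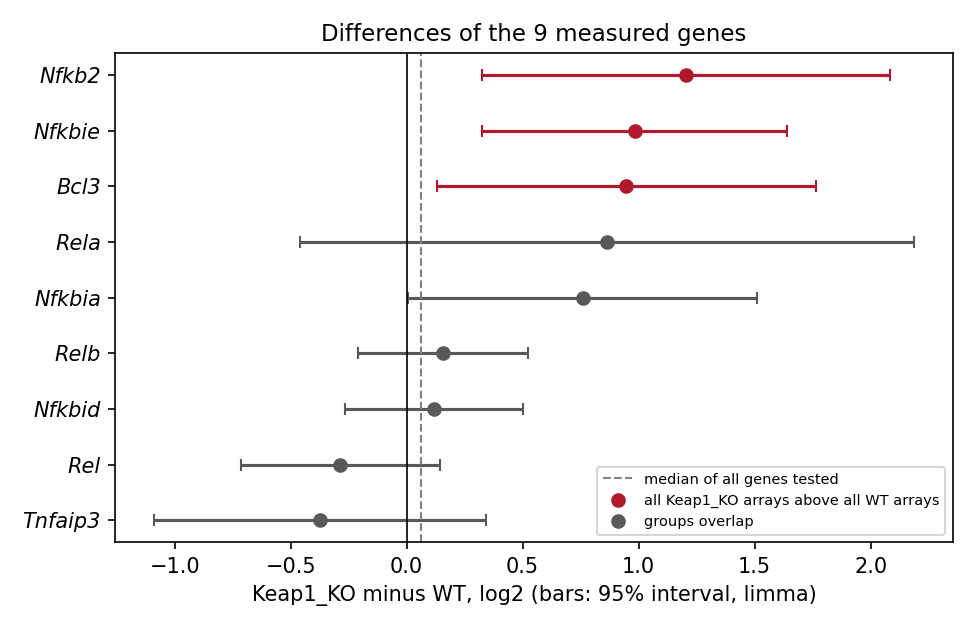
Difference Keap1_KO minus WT (log2) of the 9 genes, sorted, with limma's 95% intervals (n = 3 each). Red points are the 3 genes whose groups do not overlap, and the dashed line is the median of all genes tested, 0.06.

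Of the cytoplasmic inhibitors, Nfkbie separated the genotypes and Nfkbia nearly did. Nfkbie encodes IkappaB-epsilon, an inhibitor that is resynthesised more slowly than IkappaB-alpha after NF-kappaB activation. Its values were 7.55, 8.05 and 8.53 on Keap1_KO B, C and D, against 6.91, 7.21 and 7.06 on WT A, D and F. The 3 WT arrays were close together (7.06 ± 0.15), and the Keap1_KO arrays were spread above them (8.04 ± 0.49, SD, n = 3 each). The difference was 0.98, or 1.98-fold (SE 0.27, 95% interval 0.32 to 1.64, exact permutation p = 0.1, limma adjusted p = 0.476).

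Nfkbia encodes IkappaB-alpha, the fast feedback inhibitor and a standard readout of NF-kappaB activity. It read 11.75, 12.45 and 12.75 on Keap1_KO B, C and D, against 11.49, 11.92 and 11.27 on WT A, D and F. Only Keap1_KO B, which was 0.17 below WT D, broke the separation. The difference was 0.76, or 1.69-fold (SE 0.31, 95% interval 0.01 to 1.51, exact permutation p = 0.2, limma adjusted p = 0.476).

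The nuclear, atypical IkappaB proteins bind NF-kappaB dimers on DNA and change which genes they regulate. Bcl3, which binds p50 and p52 homodimers, read 6.95, 7.94 and 7.87 on Keap1_KO B, C and D, against 6.83, 6.90 and 6.20 on WT A, D and F. Its separation was narrow, with Keap1_KO B 0.05 above WT D, and it was lost when quantile normalization was repeated. The means were 7.59 ± 0.55 in Keap1_KO and 6.64 ± 0.39 in WT (SD, n = 3 each), a difference of 0.95 or 1.93-fold (95% interval 0.13 to 1.76, exact permutation p = 0.1, limma adjusted p = 0.476).

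Nfkbid encodes IkappaB-NS, which takes part in the induction of Foxp3 in developing Treg cells. It read 6.42, 6.59 and 6.54 on Keap1_KO B, C and D, against 6.37, 6.55 and 6.27 on WT A, D and F. The arrays of the genotypes interleaved, and the difference was 0.12 (95% interval -0.27 to 0.50, exact permutation p = 0.3, limma adjusted p = 0.738). Nfkbid had the smallest difference of the 9 genes. It held 2 kappaB matches in 1 of its windows, and a link between matches and differences was not tested.

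Tnfaip3 encodes A20, a ubiquitin-editing enzyme that shuts down signalling above IKK. It read 10.65, 10.59 and 10.59 on Keap1_KO B, C and D, against 10.54, 10.78 and 11.63 on WT A, D and F. The Keap1_KO arrays lay within 0.06 of each other between WT A and WT D, and WT F alone stood 0.85 above WT D. The difference of -0.37 (95% interval -1.09 to 0.34, exact permutation p = 0.4, limma adjusted p = 0.585) was -0.05 without WT F, and the groups separated without WT A, as did 7.83% of all genes in that direction. Nfkbiz, which encodes the atypical IkappaB protein IkappaB-zeta, was singled out after its values were seen and had the same high array. It read 8.69, 8.36 and 8.90 on Keap1_KO B, C and D, against 8.56, 8.36 and 10.10 on WT A, D and F.

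Array by array, the 9 genes did not rank the samples as their genotypes do. Keap1_KO C was the highest array for 4 genes and Keap1_KO D for 3, while WT F was the lowest for 5 and WT A for 3. Keap1_KO B lay below WT D in 6 of the 9, a count that was not made over all genes tested. Averaged over the 9 genes, the deviation from each gene's own 6-array mean came to -0.15, 0.42 and 0.46 for Keap1_KO B, C and D, against -0.25, -0.04 and -0.44 for WT A, D and F. The 16825 genes tested had a deviation of the same sign on every array but WT D, and a smaller one, with -0.04, 0.08 and 0.17 for Keap1_KO B, C and D, against -0.10, 0.04 and -0.14 for WT A, D and F. A list of 8 measured T cell and Treg identity genes followed almost the same course as the 9 genes, with -0.11, 0.38 and 0.43 for Keap1_KO B, C and D, against -0.27, -0.04 and -0.39 for WT A, D and F. Of those 8, 6 had higher means in Keap1_KO (median 0.46), against 56.5% of all genes tested, and none was separated. The T cell genes Cd4, Cd3e, Cd3d and Cd3g had differences of 1.04, 0.96, 0.94 and 0.28, and the Treg genes Ikzf4, Ctla4, Il2ra and Ikzf2 had differences of 0.64, 0.08, -0.05 and -0.11. Their part in the result was not tested. The genes whose pattern over the 6 arrays was nearest to that of Nfkb2, by root mean square distance of mean-centred values, were Pigt (0.05), Cyc1 (0.05), Septin1 (0.07), Reep4 (0.08) and Rab11b (0.10).

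**Figure D4:**
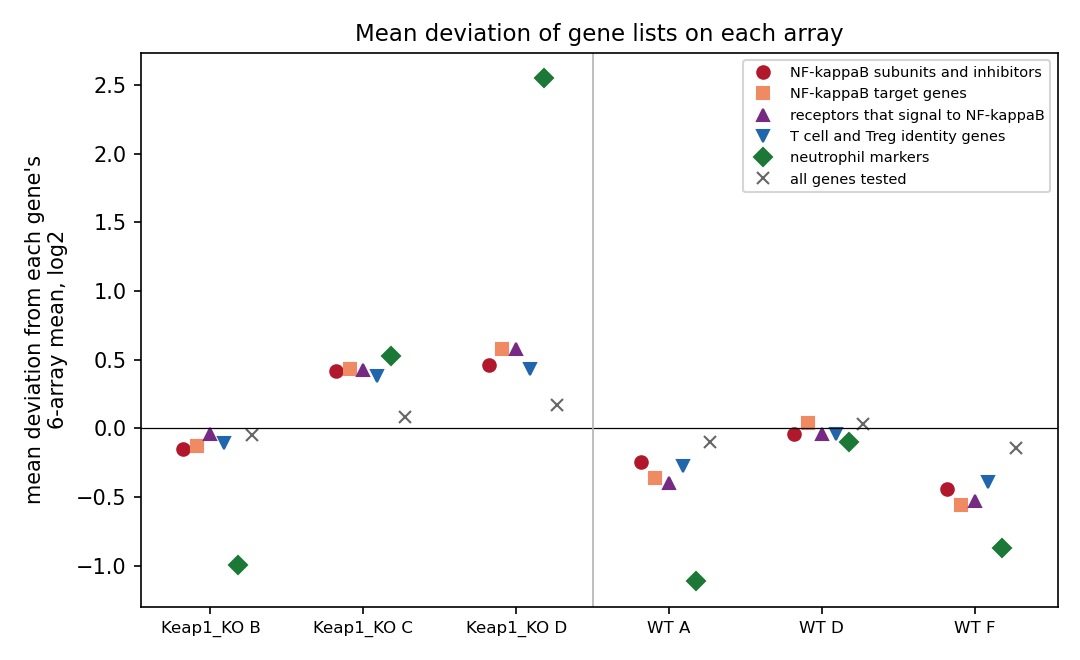
Mean deviation of gene lists from each gene's 6-array mean (log2) on the 3 Keap1_KO arrays, left, and the 3 WT arrays, right. The 9 NF-kappaB genes, NF-kappaB target genes and receptors are high on Keap1_KO C and D, neutrophil markers reach 2.55 on Keap1_KO D, the T cell and Treg identity genes run beside the 9 NF-kappaB genes, and Keap1_KO B lies below 0 for all 6 lists.

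Neutrophil markers moved along with these genes in part. Of 15 neutrophil markers tested, 14 had a higher mean in Keap1_KO, against 56.5% of all genes tested. The list's deviation averaged -0.997, 0.53 and 2.55 for Keap1_KO B, C and D, against -1.11, -0.10 and -0.87 for WT A, D and F. The mean log2 level of the 16 measured ranged from 7.25 to 10.65 in Keap1_KO and from 7.14 to 8.11 in WT, and none of the 16 was below the array median on all arrays. Mean levels ranged from 6.62 to 8.01 in Keap1_KO and from 6.13 to 7.92 in WT for 9 B cell markers. With Keap1_KO before WT, the ranges were 7.70 to 9.51 and 6.82 to 9.25 for 8 NK cell markers. For 12 macrophage and monocyte markers they were 6.75 to 7.47 and 6.31 to 7.12. Of these 12, 2 lay below the array median on all arrays, and 3 were not tested. In the same order, the ranges were 6.46 to 7.07 and 5.99 to 6.73 for 10 dendritic cell markers. For 7 plasma cell markers they were 7.58 to 9.26 and 7.40 to 8.34. Both CD8 T cell markers, Cd8a and Cd8b1, had higher means in Keap1_KO (median 0.75), and their deviation averaged -0.74, 0.90 and 0.96 for Keap1_KO B, C and D, against -0.42, 0.37 and -1.07 for WT A, D and F. Among the 15 neutrophil markers tested 1 was separated in the higher direction, as were 9.11% of all genes. This was Mpo, which encodes myeloperoxidase, at 6.90, 9.37 and 9.82 for Keap1_KO B, C and D, against 6.15, 6.35 and 6.18 for WT A, D and F. Keap1_KO D was the highest array for each of these lists. Without it, the differences of Nfkb2, Nfkbie and Bcl3 were 1.09, 0.74 and 0.80, with limma's adjusted p at 0.898 for each. Their groups did not overlap, as in 10.6% of all genes. That outcome was fixed in advance, because leaving out an array cannot make separated groups overlap. The part of these cell markers in the results was not tested.

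The rest of the pathway was described from lists of its parts. Receptors that signal to NF-kappaB had higher means in Keap1_KO for 17 of 19 genes (median difference 0.52), against 56.5% of all genes tested. In 4 of the 19, all Keap1_KO arrays lay above all WT arrays, as they did in 9.11% of all genes. Tnfrsf1b, which encodes TNF receptor 2, a costimulator of Treg cells, read 11.65, 12.21 and 12.34 on Keap1_KO B, C and D, against 10.65, 11.31 and 10.87 on WT A, D and F. This was a 2.18-fold difference (1.12, 95% interval 0.48 to 1.77, limma adjusted p = 0.476). Il18r1, a chain of the IL-18 receptor, differed by 1.11 (95% interval 0.68 to 1.54, adjusted p = 0.476). Without Keap1_KO D the receptor median was 0.25, and without WT F it was 0.28.

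Adaptors and ubiquitin ligases had higher means for 13 of 16 genes (median 0.32), against 56.5% of all genes tested. Of the 16, 6 were separated in the higher direction, as were 9.11% of all genes. The median was 0.20 without Keap1_KO D. Traf1, itself a known NF-kappaB target that binds TNF receptor 2, read 9.36, 10.45 and 10.44 on Keap1_KO B, C and D, against 8.79, 9.14 and 9.25 on WT A, D and F. Ube2v1, a cofactor for building lysine-linked ubiquitin chains, differed by 0.57. The 3 subunits of the linear ubiquitin ligase LUBAC, named after their values were seen, were all among the 6. Rnf31, the catalytic subunit, read 7.62, 7.56 and 7.79 on Keap1_KO B, C and D, against 7.40, 7.11 and 6.98 on WT A, D and F. Rbck1 differed by 0.44 and Sharpin by 0.30, and the adjusted p was 0.476, 0.476 and 0.493 for Rnf31, Rbck1 and Sharpin.

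Of 12 genes of the IKK complex and upstream kinases, 7 had higher means, against 56.5% of all genes tested, and none was separated in either direction. The median difference was 0.04, close to the 0.06 of all genes. With array weights that median was -0.05. Among deubiquitinases and A20 partners, 7 of 12 had higher means (median 0.05), against the same 56.5% of all genes. With 1 array left out, that median lay between 0.0025 without Keap1_KO D and 0.153 without WT A. It was -0.0412 with array weights and 0.1644 with each array centred on its median. In each direction 2 were separated, where 9.11% of all genes were in the higher and 4.96% in the lower. Otulin, which cuts linear ubiquitin chains, read 10.82, 11.69 and 11.59 on Keap1_KO B, C and D, against 10.33, 10.53 and 10.34 on WT A, D and F, a 1.96-fold difference. Tnip1, an A20-binding protein, differed by 0.56. In the lower direction, Cyld, a deubiquitinase that opposes NF-kappaB signalling, read 12.62, 11.95 and 12.49 on Keap1_KO B, C and D, against 12.73, 13.10 and 12.81 on WT A, D and F. Itch, a ubiquitin ligase that works with A20, differed by -0.46. None of these 4 passed (limma adjusted p between 0.476 and 0.478).

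Genes known as NF-kappaB targets in T cells had higher means in Keap1_KO for 24 of the 31 that passed the intensity filter, of 34 measured, with a median difference of 0.59. Over all genes tested, 56.5% had a higher mean. All Keap1_KO arrays lay above all WT arrays in 6 of the 31 (9.11% of all genes), and below them in 1 (4.96%). Vcam1, 1 of the 6, is named here because it is also among the macrophage and monocyte markers. Ebi3, a subunit of the cytokines IL-27 and IL-35, had the largest difference of the separated genes: 6.72, 8.07 and 8.10 on Keap1_KO B, C and D, against 5.87, 6.47 and 5.48 on WT A, D and F (3.23-fold, 95% interval of the log2 difference 0.61 to 2.77, limma adjusted p = 0.476). Zfp36, an RNA-binding protein that destabilises cytokine mRNAs, differed by 1.36. Cflar, which blocks caspase-8, was the gene in the lower direction, at -0.34 on the brighter of its 2 clusters. The mean deviation of the target list followed the 9 subunit and inhibitor genes closely, at -0.12, 0.43 and 0.57 for Keap1_KO B, C and D, against -0.36, 0.04 and -0.56 for WT A, D and F. In 18 of the 31 targets Keap1_KO B was below WT D, as in 10 of the 19 receptors and 6 of the 16 adaptors and ubiquitin ligases. The same count was not made over all genes tested, whose mean deviation was -0.04 on Keap1_KO B and 0.04 on WT D.

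**Figure D5:**
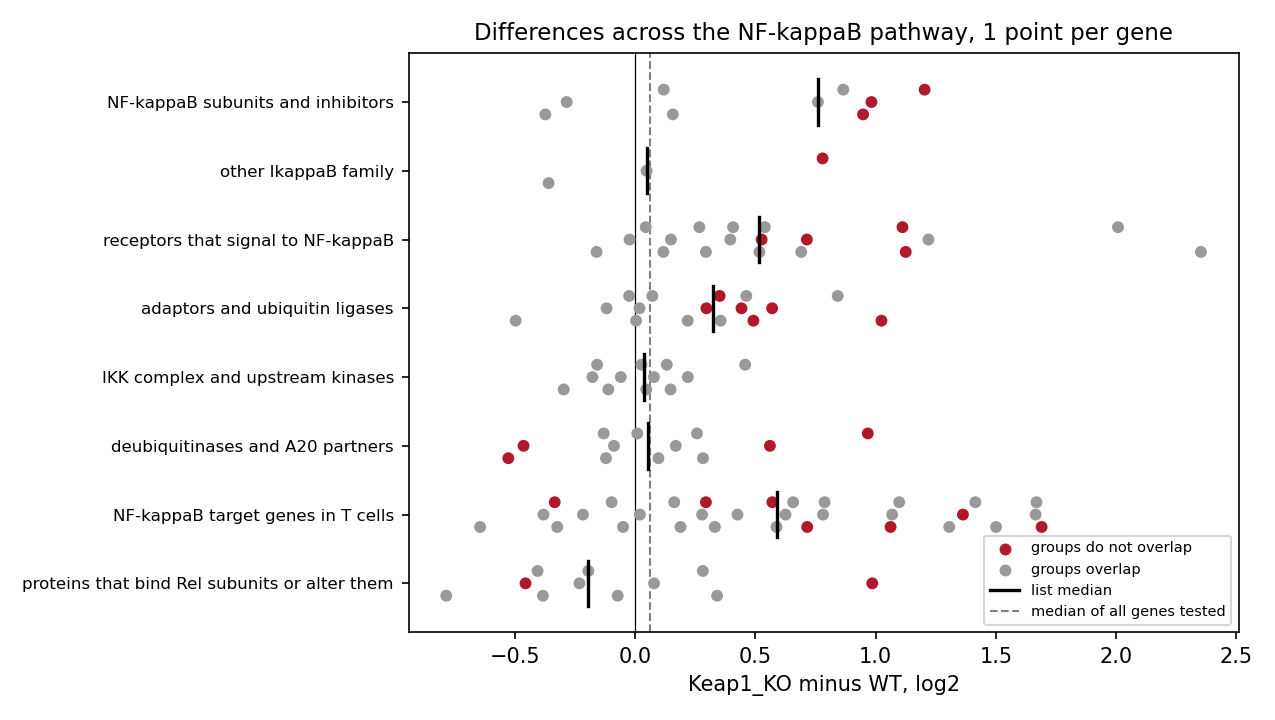
Difference Keap1_KO minus WT (log2) of each gene in 8 lists, 1 point per gene, with red for genes whose groups do not overlap and black lines for list medians. The subunits and inhibitors, receptors, adaptors and targets have medians between 0.32 and 0.76. The medians are 0.04 for the kinases, 0.05 for the other IkappaB genes and 0.05 for the deubiquitinases and A20 partners. Proteins that bind Rel subunits or alter them have a median of -0.20, and all genes tested one of 0.06.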

How the data were processed

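Expression of CD4+CD25+ spleen T cells was measured on 6 Affymetrix arrays. Per the labels' protocols, cDNA was amplified from 40 ng of total RNA. Each cluster has 1 deposited value per array on a log2 scale. The tools named in the submitters' processing notes are RMA, Transcriptome Analysis Console and Affymetrix Expression Console, with no version or role for any. RMA includes quantile normalization, yet array medians ran from 5.16 to 5.43 and values reached 19.93, above the 16 of a 16-bit scanner, and no label says why.

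Symbols came from the platform annotation, updated through Entrez identifiers. Of 65528 clusters, 30354 carried 1 symbol, and clusters with several were not used. A cluster was tested when at or above its array's median on at least 3 of 6 arrays, and the brightest cluster stood for a gene. Keap1_KO and WT were compared with limma 3.58.1 in R 4.3.3 (lmFit, eBayes, Benjamini-Hochberg over 16825 genes, adjusted p under 0.05), and single genes also by exact permutation. The fit was also run on simulated data, drawn independently for each gene. They held no shifts of whole arrays, so that run cannot show how the fit behaves under such shifts. The number of arrays limits the precision. Members and lists were chosen with earlier results of these data known. From each list, the text names genes past the threshold or else the 2 largest separated differences in each direction. Alternatives changed the filter, scaling, variance model and cluster choice, and left out each array.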

Additional observations from a re-analysis of the deposited data

How the results depend on the processing

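Over 13 alternatives, all 117 recomputed differences of the 9 genes kept their direction, 7 genes kept a higher mean, and 4 differences passed the adjusted threshold, all with array weights: Nfkb2, Nfkbia, Nfkbie and Bcl3 (limma adjusted p from 0.0408 to 0.0447, and from 0.0501 to 0.0772 without Keap1_KO B). With array weights 1880 genes passed, among them 4 of the 9. The weights were 0.35, 1.5 and 1.45 for Keap1_KO B, C and D and 3.38, 0.76 and 0.51 for WT A, D and F. With a trended, robust variance 1 gene passed, and leaving out 1 array gave from 0 to 575 genes, the 575 without Keap1_KO B, with no member among them. The number of separated members ranged from 3 to 6 when 1 array was left out, where 10.6% to 31.6% of all genes were separated in the higher direction. Leaving out an array cannot make separated groups overlap, so it could not lower the number below the 3 found with all 6 arrays. The number counts 1 member in the lower direction without Keap1_KO C or WT F (Rel) and without WT A (Tnfaip3). It was 2 after repeated quantile normalization, with 8.59% of all genes. Adjusted p over all alternatives ran from 0.0408 to 0.898 for Nfkb2 and Nfkbie, and from 0.0426 to 0.898 for Bcl3.

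Centring every array gave a median of 0.17 over all genes, against 0.06 as reported, and a difference of 1.32 for Nfkb2. Without the intensity filter the median of all genes was -0.0326. With array weights the kinase median was -0.0537 and that of deubiquitinases -0.0412. Leaving out single arrays gave kinase medians of -0.0271 to 0.0631 and medians of -0.0742 to 0.1849 for the other IkappaB genes. Of 182 list results, 35 changed by over 1.5 times or in sign, and the cause was not tested. No cluster shared with another gene holds a member, so that alternative was not run. No paired analysis was possible because the genotypes share only the letter D.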

Other observations

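Proteins that bind Rel subunits or modify them had a median difference of -0.20 over 11 tested genes. Means in Keap1_KO were higher for 4 and lower for 7, where 56.5% of all genes tested had a higher one. The median was -0.0147 without WT A, -0.0319 without WT D, -0.0697 without Keap1_KO C and -0.083 with centred arrays. In this list 1 gene was separated in each direction, against 9.11% of all genes in the higher and 4.96% in the lower. Hdac3, a histone deacetylase that also acts on p65, read 8.07, 8.70 and 8.95 on Keap1_KO B, C and D, against 7.48, 7.86 and 7.42 on WT A, D and F (difference 0.99, 95% interval 0.33 to 1.64, limma adjusted p = 0.476). Sirt1, a deacetylase that limits p65 activity, read 10.10, 9.96 and 9.99 on Keap1_KO B, C and D, against 10.62, 10.59 and 10.21 on WT A, D and F (difference -0.46, 95% interval -0.89 to -0.02, limma adjusted p = 0.476). Of the 3 other IkappaB genes tested, 2 had a higher mean in Keap1_KO (median difference 0.05), against 56.5% of all genes tested. In 1 of the 3 all Keap1_KO arrays lay above all WT arrays, as in 9.11% of all genes. This was Nfkbib, which encodes IkappaB-beta and had no place among the genes above. It read 8.87, 9.31 and 9.58 on Keap1_KO B, C and D, against 8.54, 8.83 and 8.05 on WT A, D and F (1.72-fold, 95% interval of the log2 difference 0.10 to 1.46, limma adjusted p = 0.476). Keap1_KO B exceeded WT D by 0.04 there.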
